A study of Mus musculus with 51 samples.

Results

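The regions described here are H3K27ac peaks of early astrocytes (eA) with no overlapping H3K27ac peak before or after that stage, which overlapped H3K4me1 at eA but not at the stage before. A mark is called absent here where its list has no peak, and signal too low to be called a peak was not measured. They were selected from the merged eA H3K27ac peak list by 4 conditions on chromosomes 1 to 19. A member overlapped no H3K27ac peak of the astrogliogenic precursors (aNPC) or of the late astrocytes (lA) by 1 bp or more, it overlapped an eA H3K4me1 peak, it overlapped no aNPC H3K4me1 peak, and its centre lay more than 1 kb from every coding start site of mm9. Of 81348 eA H3K27ac peaks on these chromosomes, 14383 had no H3K27ac peak at either other stage, 10597 of these had an eA H3K4me1 peak, 2612 of those had no aNPC H3K4me1 peak, and 2547 were distal. The 2547 members made up 3.13% of the list and 2547 of 63751 distal peaks.

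The aNPC were derived from C57/BL-6 mouse embryonic stem cells and were kept in N2 medium with EGF and FGF2. Differentiation in serum-containing medium with LIF gave eA at day 1 and lA at day 5. Each of the 6 peak lists, H3K27ac and H3K4me1 at each of 3 stages, merged the reads of 2 replicates, so no error between cultures can be given, and regions are not replicates of a stage. The cultures come from an in vitro line, and bulk chromatin cannot tell a mark in few cells from a weak mark in many. The lists held 77553, 81348 and 90545 H3K27ac peaks and 150527, 181227 and 203377 H3K4me1 peaks at aNPC, eA and lA on chromosomes 1 to 19, and the depth of the merged reads is unknown. Among fixed marker genes, H3K27ac lay within 1 kb of a coding start site of 7, 6 and 7 of 9 astrocyte genes at aNPC, eA and lA, of 5 of 5 progenitor genes at each stage, of 2, 3 and 1 of 3 neuronal genes, and of 0 of 4 microglial and 0 of 3 pluripotency genes at each stage. Mesenchymal genes carried it at 2 of 5 at each stage and oligodendrocyte-lineage genes at 2 of 4, and their part in the results was not tested.

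H3K27ac is an acetyl mark of active promoters and enhancers. H3K4me1 is a methyl mark found at enhancers, and it can be present before acetylation, which is called priming. An enhancer that gains both marks at the same step has no such earlier mark. Astrocytes arise from neural precursors under LIF and BMP signals through STAT3 and SMAD proteins, with nuclear factor I and SOX9 as factors of the lineage and AP-1 (Fos, Jun and related dimers) as a factor induced early by many signals. The word enhancer is used here for the combination of marks, since activity was not measured.

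Sequences of members are shown around the letters of the motifs counted below, 120 bases of the plus strand of mm9 each, because the comparisons of sequence rest on such matches. Capitals mark exact matches, on either strand, to AP-1 (TGACTCA), the NF1 letters TGCCAAG, SOX (CCATTGT or CCTTTGT), STAT (TTCCNGGAA), the E-box CAGCTG, the GC box (GGGCGGG) and ETS (CCGGAAG). The member with the highest −log10 q of all had no match to these motifs in its 200 bp window. It lay at chr7:122270125-122270503, in no coding gene, and its sequence is from chr7:122270228-122270347.
Highest member, intergenic: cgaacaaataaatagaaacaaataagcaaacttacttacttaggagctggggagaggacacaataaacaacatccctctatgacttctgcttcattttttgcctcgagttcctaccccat

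The following 4 members held AP-1 letters. The member of the highest −log10 q with AP-1 lay in an intron of C130039O16Rik and is shown from chr12:85516945-85517064. The other 3 lay in introns of genes of the lists examined below, namely Nfib at chr4:82116685-82116804, Aldh1l1 at chr6:90525706-90525825 and Tgfbr3 at chr5:107549065-107549184. In the Nfib sequence the AP-1 letters and the SOX letters, read on the other strand, lie 2 bases apart.
C130039O16Rik intron: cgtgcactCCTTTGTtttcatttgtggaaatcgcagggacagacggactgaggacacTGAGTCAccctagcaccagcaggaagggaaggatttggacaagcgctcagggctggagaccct
Nfib intron: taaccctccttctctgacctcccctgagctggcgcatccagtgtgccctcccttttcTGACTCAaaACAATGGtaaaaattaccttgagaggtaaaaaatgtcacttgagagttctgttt
Aldh1l1 intron: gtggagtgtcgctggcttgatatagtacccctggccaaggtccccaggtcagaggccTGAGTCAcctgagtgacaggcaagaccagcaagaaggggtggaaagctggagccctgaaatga
Tgfbr3 intron: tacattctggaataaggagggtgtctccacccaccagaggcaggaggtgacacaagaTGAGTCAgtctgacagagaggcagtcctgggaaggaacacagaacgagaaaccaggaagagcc

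The following 5 are the members of highest −log10 q with the NF1 letters (Avl9 intron, chr6:56696210-56696329), SOX (Yap1 intron, chr9:7952865-7952984), the E-box CAGCTG (intergenic, nearest start site Prlhr, chr19:60436327-60436446), the GC box (intergenic, nearest start site Sall1, chr8:91582534-91582653) and ETS (intergenic, nearest start site Tacr1, chr6:82246567-82246686).
Avl9 intron, NF1: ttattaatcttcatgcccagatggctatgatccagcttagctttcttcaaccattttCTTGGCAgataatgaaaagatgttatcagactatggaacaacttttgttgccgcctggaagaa
Yap1 intron, SOX: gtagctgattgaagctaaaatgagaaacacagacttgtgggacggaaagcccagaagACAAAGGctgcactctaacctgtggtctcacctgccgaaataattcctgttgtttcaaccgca
Prlhr neighbour, E-box: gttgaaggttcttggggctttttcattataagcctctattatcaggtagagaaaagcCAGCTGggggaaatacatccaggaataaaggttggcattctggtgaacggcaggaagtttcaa
Sall1 neighbour, GC box: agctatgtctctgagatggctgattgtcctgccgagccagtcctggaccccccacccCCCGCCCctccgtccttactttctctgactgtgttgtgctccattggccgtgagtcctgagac
Tacr1 neighbour, ETS: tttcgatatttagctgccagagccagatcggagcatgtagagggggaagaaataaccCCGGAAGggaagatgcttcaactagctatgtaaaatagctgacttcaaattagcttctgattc

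The last 3 held STAT letters, and are shown because these letters differed within the members. The member of highest −log10 q with them is not among those shown, and these 3 were chosen after their values were seen. The member in an intron of Sorbs2 (chr8:46702937-46703056) kept an H3K4me1 peak at lA, whereas the intergenic members at chr6:79412052-79412171 and chr11:106254671-106254790 (nearest start site Icam2) had none. The member on chromosome 6 also held AP-1 letters.
Sorbs2 intron, STAT: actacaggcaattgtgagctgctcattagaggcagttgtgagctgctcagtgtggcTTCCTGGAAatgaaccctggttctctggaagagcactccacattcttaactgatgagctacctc
Chromosome 6, STAT and AP-1: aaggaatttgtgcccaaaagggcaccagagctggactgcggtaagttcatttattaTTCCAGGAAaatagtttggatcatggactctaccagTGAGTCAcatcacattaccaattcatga
Icam2 neighbour, STAT: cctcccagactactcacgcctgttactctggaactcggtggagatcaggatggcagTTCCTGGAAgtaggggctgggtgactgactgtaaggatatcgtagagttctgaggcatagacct

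The members were compared with 3 other sets of distal eA H3K27ac peaks. The 6846 primed transient peaks also lacked H3K27ac at aNPC and lA but overlapped H3K4me1 at both aNPC and eA. The 5338 sustained unprimed peaks had the same H3K4me1 pattern as the members but overlapped lA H3K27ac. The third set was the 61204 other distal eA peaks, which contain the first 2 sets. The members were small peaks of low significance in their list, which is given as a description because the presence of a peak chose them. Their median width was 187 bp (quartiles 149 and 253 bp), against 210 bp for primed transient and 272 bp for sustained unprimed peaks and 347 bp for the other distal peaks. The median −log10 q, the significance of the peak as MACS2 gave it, was 4.53 (quartiles 3.72 and 6.09) in members, 5.00 in primed transient, 6.30 in sustained unprimed and 8.10 in other distal peaks, and 1140 members (44.8%) reached 5. Their median fold over the local background was 3.48, against 4.06 for the other distal peaks.

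The 10 members of highest −log10 q ranged from 25.0 to 15.2. The member at chr2:146789990-146790970, in an intron of Plk1s1 and 48252 bp from the start site of the exonuclease gene Xrn2, was 981 bp wide with a −log10 q of 23.6 and a fold of 7.30. The intergenic member at chr19:60436144-60436575 had 19.1 and a fold of 7.38. A member in an intron of Apc2, a cytoskeletal relative of the tumour suppressor Apc (chr10:79766195-79766451), had 16.2 with a fold of 3.85. Intergenic members at chr6:118291825-118292051 and chr6:82246478-82246743 followed with 16.0 and 15.9. Introns of the potassium channel partner Kcnip4 (chr5:49485851-49486239) and of Avl9 (chr6:56696240-56696583) held members of 15.4 each. An intron of the lipid phosphatase gene Inpp4b (chr8:84349193-84349596) held a member of 15.3, and an intron of Yap1, the coactivator of the Hippo pathway (chr9:7952781-7953104), a member of 15.2. At lA, 8 of these 10 overlapped an H3K4me1 peak, and those in Apc2 and Inpp4b did not. From the highest member down, the nearest aNPC H3K4me1 peak lay 289, 4531, 28, 297, 11, 172, 21, 18543, 1659 and 6943 bp away. In the same order, the nearest aNPC H3K27ac peak lay 1227, 4577, 31004, 261, 4045, 104305, 54249, 30416, 1778 and 7100 bp away. The nearest lA H3K27ac peak lay 380, 4920, 47674, 345, 3517, 129, 196798, 29458, 1314 and 271 bp away.

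Many members lay close to H3K4me1 of the aNPC stage. The nearest aNPC H3K4me1 peak lay at a median of 1486 bp from the member, within 200 bp for 683 members (26.8%), within 500 bp for 1030 (40.4%) and within 1 kb for 1186 (46.6%). The plot of this distance has a mode between 100 bp and 1 kb and another between 1 kb and 20 kb. The sustained unprimed peaks, chosen by the same H3K4me1 condition, had 37.9% within 500 bp and 44.4% within 1 kb.

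**Figure D1:**
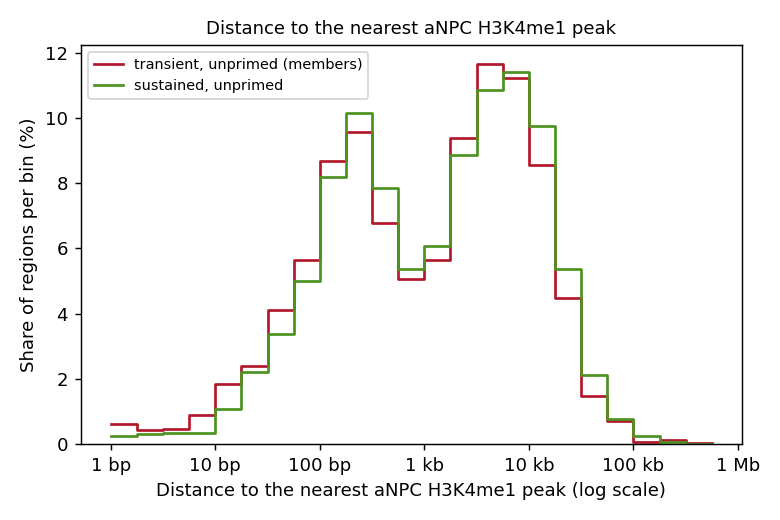
Share of regions (%) by distance to the nearest aNPC H3K4me1 peak on a log scale, for the 2547 members and the 5338 sustained unprimed peaks; each step is a bin of 0.25 on the log10 scale, and a distance of 0 bp is drawn at 1 bp. Both sets show the same 2 modes, and 40.4% of the members lie within 500 bp.

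The eA H3K4me1 peak under a member reached over to an aNPC H3K4me1 peak in 705 of 2547 members (27.7%) and in 1842 (72.3%) it overlapped no aNPC peak at all. Sustained unprimed peaks, under the same H3K4me1 condition, had 23.3% reaching. The reaching eA H3K4me1 peaks were wide (median 946 bp, median −log10 q 14.1), and those that did not reach were narrow (407 bp, 7.41). The H3K27ac summit lay inside an eA H3K4me1 peak in 2020 members (79.3%), and the members lay on 2447 distinct eA H3K4me1 peaks. An lA H3K27ac peak lay within 500 bp of 918 members (36.0%) and within 1 kb of 1112 (43.7%), where primed transient peaks had 35.8% and 42.7%. An aNPC H3K27ac peak lay within 500 bp of 216 members (8.48%) and of 22.4% of primed transient peaks. The median distance to the nearest other eA H3K27ac peak was 1674 bp, against 700.5 bp for primed transient and 340 bp for sustained unprimed peaks.

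At the edges of the rule, the members nearest to aNPC H3K4me1 touched it with no base shared. They were chr13:118225988-118226131, an intergenic peak of −log10 q 3.12, and chr14:66361524-66361680, an intronic peak of 5.28. Their counterparts outside the rule, the primed transient peaks with the smallest overlap of 1 bp, were chr1:33567602-33567844 (4.35) and chr1:128697773-128697965 (3.68). In all, 254 members lay under 50 bp from aNPC H3K4me1 and 325 primed transient peaks overlapped it by under 50 bp. The members nearest to a coding start site lay 1025 bp from that of Tm4sf4 (−log10 q 3.12) and 1026 bp from that of the cytoskeletal linker gene Macf1 (3.12), and the peaks just too close lay 989 bp from Arsa (4.15) and 978 bp from Csgalnact2 (5.76).

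The H3K4me1 list of lA was not used by the rule and shows which members overlapped H3K4me1 4 days after the eA stage. Of the 2547 members, 1824 overlapped an lA H3K4me1 peak (71.6%, 95% Wilson interval 69.8 to 73.3), where the share over all distal eA peaks was 86.4%. The share was 87.7% (86.9 to 88.4) in primed transient, 89.3% (88.4 to 90.1) in sustained unprimed and 87.0% (86.7 to 87.3) in other distal peaks. The members were lower than each, with a difference of −16.0 points from primed transient peaks (Newcombe interval −18.0 to −14.1; two-sided Fisher's exact test over regions, adjusted p = 3.43e-70), −17.7 points from sustained unprimed peaks (−19.6 to −15.7; adjusted p = 3.42e-81) and −15.4 points from other distal peaks (−17.2 to −13.7; adjusted p = 1.10e-87). The adjustment ran over the 12 tests of H3K4me1, location and GC content, and these p-values and intervals cover counting over regions only. Neighbouring regions can share an lA peak. The sustained unprimed peaks overlap lA H3K27ac by selection, whereas the primed transient peaks, like the members, do not. The primed transient peaks overlap aNPC H3K4me1 by selection. The other distal peaks had a median distance of 0 bp to aNPC H3K4me1, aNPC H3K27ac and lA H3K27ac. How far the selection itself sets these differences was not tested.

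**Figure D2:**
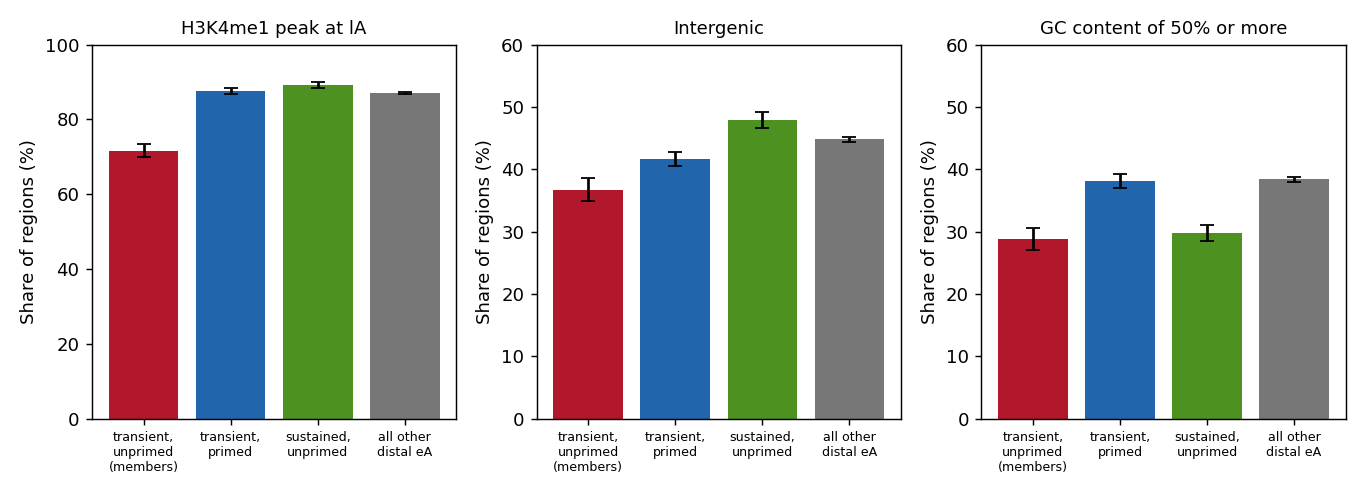
Share of regions (%) that overlap an lA H3K4me1 peak, that are intergenic and whose 200 bp summit window has a GC content of at least 50%, by set, with 95% Wilson intervals as bars. The members are lower than the 3 other sets in the first 2 panels (71.6% and 36.7%), and in GC content they lie beside the sustained unprimed peaks (28.8% and 29.7%).

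The difference from primed transient peaks was not of the same size at every significance of the eA H3K4me1 peak, which was tabulated after seeing the data, with no test of the change between steps. Where that peak had a −log10 q under 5, 320 of 500 members (64.0%, 59.7 to 68.1) and 226 of 356 primed transient peaks (63.5%, 58.4 to 68.3) had lA H3K4me1, a difference of 0.52 points (−5.95 to 7.07). From 5 to 10 the shares were 69.9% and 78.8%, from 10 to 20 they were 76.3% and 89.3%, and from 20 they were 79.2% of 212 members and 94.7% of 2163 primed transient peaks, a difference of −15.5 points (−21.5 to −10.5). Against sustained unprimed peaks the members were lower in each of these 4 steps, with differences from −13.9 to −17.2 points. The members' eA H3K4me1 peaks had a median −log10 q of 8.74 against 15.5 for primed transient and 11.03 for sustained unprimed peaks. By significance of the H3K27ac peak the members' share lay between 67.2%, below 3, and 72.5%, from 3 to 5, and it was below that of both sets in each of the 4 steps.

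**Figure D3:**
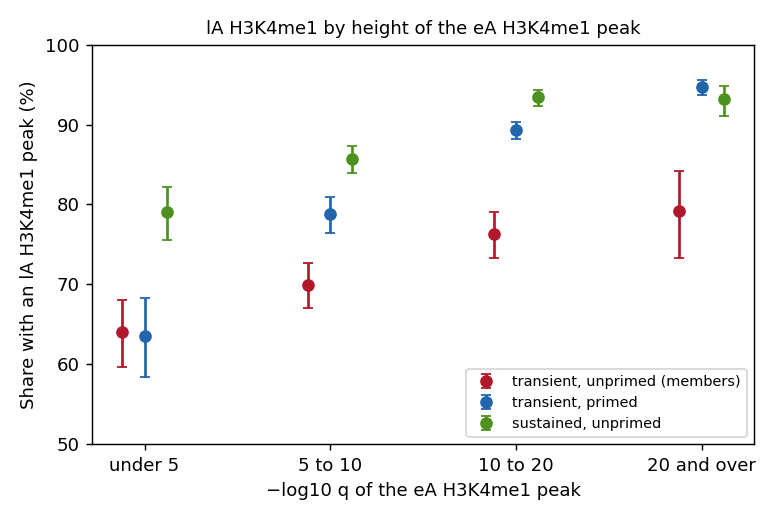
Share of regions (%) with an lA H3K4me1 peak by −log10 q of their eA H3K4me1 peak, in 4 steps, with 95% Wilson intervals as bars; the vertical axis runs from 50 to 100%. Members and primed transient peaks coincide in the lowest step (64.0% and 63.5%) and part above it, while the members stay below the sustained unprimed peaks in each step.

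Where lA H3K4me1 was present, it was less significant in its own list at members than elsewhere. The median −log10 q of the lA H3K4me1 peaks was 10.6 at members, 13.8 at primed transient, 14.5 at sustained unprimed and 16.9 at other distal peaks, and 52.9% (50.6 to 55.1), 70.3% (69.2 to 71.5), 73.6% (72.3 to 74.8) and 79.9% (79.6 to 80.2) of them reached 10. Members with an lA H3K27ac peak within 1 kb had lA H3K4me1 in 76.3% (73.7 to 78.7) of 1112 cases and those without in 68.0% (65.6 to 70.4) of 1435. Members whose eA H3K4me1 peak reached an aNPC peak had it in 74.0% and the others in 70.7%, a difference of 3.36 points (−0.57 to 7.11; Fisher's exact test, adjusted p = 0.295 over 31 comparisons within the members, chosen after seeing the data). For 540 members (21.2%) the eA H3K4me1 peak did not reach an aNPC one and no lA H3K4me1 peak overlapped the member. The 723 members without lA H3K4me1 had a median −log10 q of 4.60 in H3K27ac and those with it 4.49.

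The members were more often inside coding genes than the other sets, with 57.7% in introns and 5.61% in exons. By Fisher's exact test, their centre lay outside every coding gene in 935 cases (36.7%, 34.9 to 38.6), against 44.5% over all distal eA peaks, 41.7% of primed transient (difference −4.95 points, −7.14 to −2.73; adjusted p = 2.01e-05), 47.9% of sustained unprimed (−11.2 points, −13.5 to −8.88; adjusted p = 1.40e-20) and 44.9% of other distal peaks (−8.14 points, −10.0 to −6.21; adjusted p = 6.05e-16). The intergenic call against primed transient peaks was lost with a −log10 q limit of 5 in all lists. By distance from a start site the sets were much closer. A distance over 50 kb was found for 967 members (38.0%), against 38.6% over all distal eA peaks, and by Fisher's exact test the difference was 0.29 points (−1.90 to 2.51; adjusted p = 0.792) from primed transient, −3.44 points (−5.72 to −1.12; adjusted p = 0.00502) from sustained unprimed and −0.67 points (−2.57 to 1.27; adjusted p = 0.552) from other distal peaks. The call of this distance against sustained unprimed peaks was lost with the limit in all lists, with equal list lengths and with all start sites. The members lay on all 19 chromosomes and made up 3.50% of the distal eA peaks of chromosome 12, the lowest share, and 4.61% of those of chromosome 18, the highest.

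Within the members, location differed with lA H3K4me1. Of the 1824 members that had it, 38.9% were intergenic, and of the 723 that had none, 31.3% (difference 7.61 points, 3.50 to 11.6; Fisher's exact test, adjusted p = 0.00978). The shares more than 50 kb from a start site were 39.9% and 33.2% (6.66 points, 2.50 to 10.7; Fisher's exact test, adjusted p = 0.0198).

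The 200 bp windows around the H3K27ac summit were low in GC. A GC content of at least 50% was found in 733 members (28.8%, 27.1 to 30.6), against 38.0% over all distal eA peaks. By Fisher's exact test the difference was −9.32 points from primed transient (−11.4 to −7.19; adjusted p = 5.87e-17), −9.64 points from other distal peaks (−11.4 to −7.81; adjusted p = 5.24e-23) and −0.97 points from sustained unprimed peaks (−3.09 to 1.19; adjusted p = 0.460). The median GC content was 46.0% in members and 47.5% in primed transient peaks.

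Among the 27 motifs counted in these windows, AP-1 letters were more frequent in members. They occurred in 167 members (6.56%, 5.66 to 7.58), where 4.08% of all distal eA peaks had them. The share was 4.47% in primed transient peaks (difference 2.09 points, 1.05 to 3.22; Fisher's exact test, adjusted p = 0.00106 over 81 tests) and 3.98% in other distal peaks (2.58 points, 1.67 to 3.62; odds ratio 1.69; adjusted p = 1.93e-07). Against sustained unprimed peaks, with 5.43%, the difference was 1.12 points (0.02 to 2.30; Fisher's exact test, adjusted p = 0.288). In 500 bp windows the shares were 18.1% in members, 11.96% in primed transient, 16.8% in sustained unprimed and 12.54% in other distal peaks. Within steps of GC content, by a Cochran-Mantel-Haenszel test in place of the exact test, the AP-1 odds ratio was 1.48 against primed transient (adjusted p = 0.00372) and 1.69 against other distal peaks (adjusted p = 1.52e-08). Among peaks of a −log10 q from 3 to 8 the difference from primed transient peaks was 1.79 points (Fisher's exact test, adjusted p = 0.0520), so that the call was lost there. By position, given as a description, the 50 bp bins just upstream and just downstream of the summit held 13.0 and 18.8 matches per 1000 members, the bin from 250 to 200 bp upstream held 24.7, and the 2 bins at the outer edges held 10.99 and 15.3. The highest bin of the sustained unprimed peaks, from 300 to 250 bp upstream, was above these, with 28.7 per 1000.

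**Figure D4:**
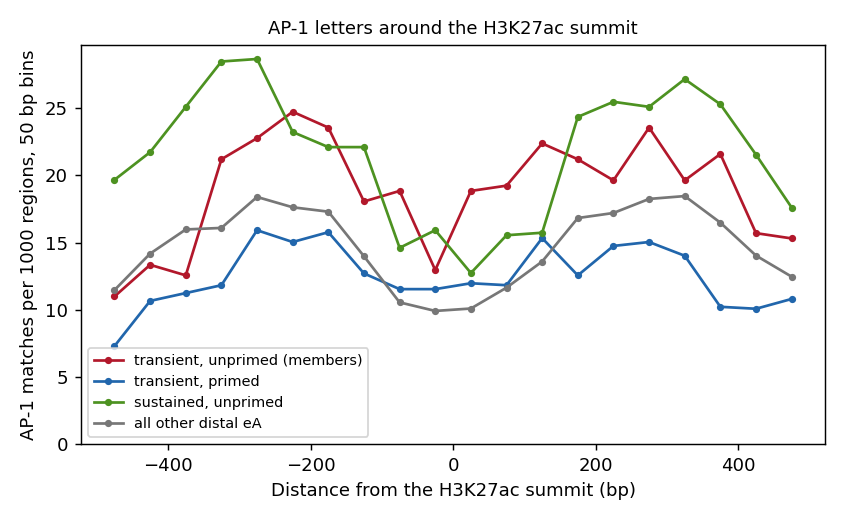
AP-1 matches per 1000 regions in 50 bp bins by distance from the H3K27ac summit (bp, along the plus strand), for the members and the 3 other sets. The members peak at 24.7 on the upstream flank and hold 13.0 and 18.8 in the bins beside the summit, and sustained unprimed (15.9 and 12.7) and other distal peaks (9.92 and 10.1) are also lower there than on their flanks. Sustained unprimed peaks reach 28.7, from 300 to 250 bp upstream, which is above the highest bin of the members.

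The motifs that were less frequent in members were the E-box CAGCTG, the GC box of Sp and Klf factors, and ETS. CAGCTG occurred in 286 members (11.2%), against 13.2% of all distal eA peaks, 14.7% of primed transient (Fisher's exact test, adjusted p = 0.000313) and 13.3% of other distal peaks (adjusted p = 0.0312). The GC box occurred in 15 members (0.589%), against 1.70% of all distal eA peaks, 1.90% of primed transient (Fisher's exact test, adjusted p = 2.86e-05) and 1.74% of other distal peaks (adjusted p = 2.86e-05). ETS letters occurred in 13 members (0.510%), against 1.07% of all distal eA peaks, 1.09% of other distal peaks (Fisher's exact test, adjusted p = 0.0351) and 0.949% of primed transient peaks (adjusted p = 0.254, not called). Within steps of GC content none of these differences passed the threshold (Cochran-Mantel-Haenszel test in place of the exact test, adjusted p from 0.0650 for CAGCTG against primed transient to 0.597 for CAGCTG against other distal peaks). The odds ratios against primed transient and other distal peaks were 0.737 and 0.825 for CAGCTG and 0.306 and 0.334 for the GC box without these steps, and 0.803 and 0.909 for CAGCTG and 0.467 and 0.513 for the GC box within them. For ETS against other distal peaks they were 0.466 and 0.560. All remained below 1. None of the 27 motifs passed the test against sustained unprimed peaks. The lowest adjusted p there was 0.0875, for SOX CCATTGT.

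**Figure D5:**
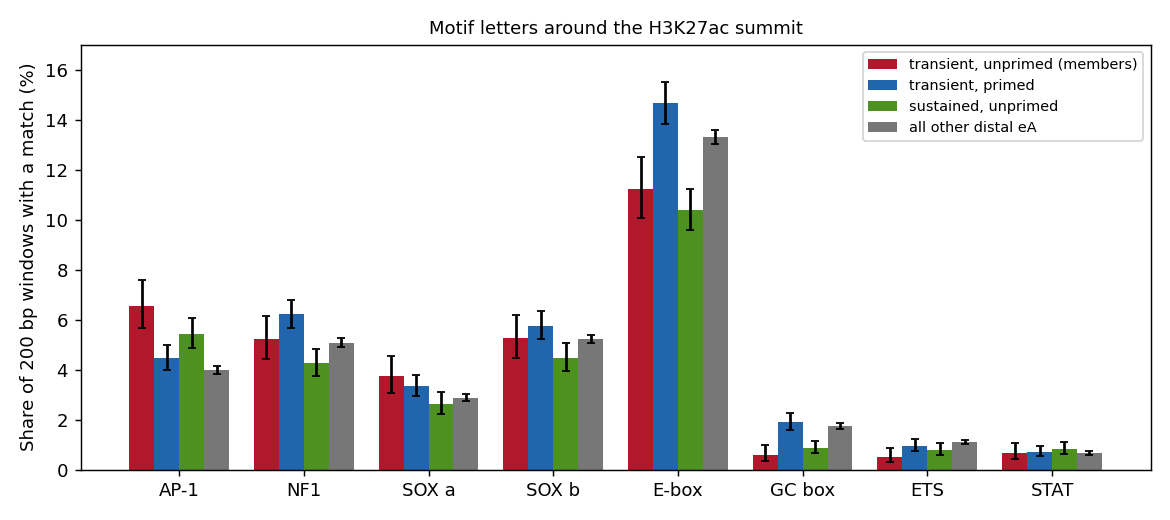
Share of 200 bp summit windows (%) with 1 or more exact matches, for 8 motifs and 4 sets, with 95% Wilson intervals as bars; SOX a is CCATTGT, SOX b is CCTTTGT, the E-box is CAGCTG and NF1 is TGCCAAG. AP-1 is higher in members than in primed transient and other distal peaks, and E-box and GC box are lower.

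For the other factors of the lineage no difference passed the test. NF1 letters TGCCAAG occurred in 133 members (5.22%; 5.09% of all distal eA peaks), SOX CCATTGT in 95 (3.73%; 2.91%), SOX CCTTTGT in 134 (5.26%; 5.22%) and STAT in 17 (0.667%; 0.667%). The full NF1 site, TTGGC and GCCAA separated by 5 bases, occurred in 0 members and in 18 of all distal peaks. The most significant member with STAT letters was intergenic and nearest to the start site of Zfp608, with a fold of 5.27, and had no lA H3K4me1. It lay 1 bp from an aNPC H3K4me1 peak, 20 bp from an aNPC H3K27ac peak and 30 bp from an lA H3K27ac peak. The STAT letters were distributed unevenly within the members. Of 17 members with them, 11 had no lA H3K4me1 peak, which is 1.52% of the 723 without lA H3K4me1 and 0.329% of the 1824 with it (difference −1.19 points, −2.39 to −0.42; Fisher's exact test, adjusted p = 0.0198). The E-box CAGCTG went the same way, with 14.1% without and 10.1% with lA H3K4me1 (Fisher's exact test, adjusted p = 0.0335). AP-1 occurred in 8.02% without and 5.98% with it (Fisher's exact test, adjusted p = 0.216). These 3 comparisons belong to the family of 31 chosen after seeing the data.

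Of the members, 2026 (79.5%) could be given a gene, that of the nearest coding start site, if the member lay in a gene or within 50 kb of the site. They named 1619 genes, which is 7.61% of 21281 coding genes and 15.5% of the 10450 genes named by any distal eA peak. Members were scattered, with 1322 genes named by 1 member, 222 by 2 and 75 by 3 or more. A primed transient peak also named 733 of the 1619 genes, or 45.3% of them and 20.3% of the 3602 genes of primed transient peaks. Those 3602 are 16.9% of all coding genes and are among the 10450 genes named by any distal eA peak. Long genes offer more room for members, and gene length was not corrected for.

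Of 7 genes with 5 or more members, Nckap5, Grsf1, Npas3, Rap2a and Ank2 are described. Rap2a and Ank2 shared their count of 5 with Glis3 and Setbp1 and had members of higher −log10 q. Nckap5, whose locus spans 917180 bp of chromosome 1 (127810197-128727376), had 9 members in introns with −log10 q from 2.32 to 9.40, all with lA H3K4me1, among 89 distal eA peaks. Grsf1, an RNA-binding protein of mitochondria (chromosome 5, 89088473-89105196), was the nearest start site of 6 with −log10 q from 4.01 to 9.79, all with lA H3K4me1, of which 5 lay in its own introns and 1 in an intron of its neighbour Rufy3, and no other distal eA peak was nearest to it. Npas3, a bHLH-PAS factor of the nervous system (chromosome 12, 54349664-55173162), had 6 members of 3.66 to 8.61, of which 2 kept H3K4me1 at lA. Rap2a, a small GTPase, was the nearest start site of 5 members of 2.59 to 14.9, 80196 to 100565 bp upstream of its start in introns of Mbnl2, an RNA-binding splicing regulator, all with lA H3K4me1. Ank2, an ankyrin of the membrane skeleton (chromosome 3, 126624525-127111949), had 5 of 2.79 to 7.82, 4 of them intronic, of which 4 had lA H3K4me1. The promoters of all 5 carried H3K27ac at aNPC, eA and lA.

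Most members stood alone, and 2142 (84.1%) had no other member in the same run, as defined by a greatest distance between neighbours. Of the 186 runs of 2 or more, 26 held 3 or more. The largest run lay in introns of Grsf1 at chr5:89092308-89097367, where 5 members spanned 5060 bp with no H3K27ac peak of aNPC or lA between them and lA H3K4me1 at each. The member at chr5:89097130-89097367 was the most significant of these (9.79), and the members at chr5:89092308-89092496 and chr5:89093611-89094067 held AP-1 letters. Several runs held 4 members, of which the 2 of shortest span are given. A run of 4 members spanned 8142 bp in and beyond Celf3, an RNA-binding protein of neurons (chr3:94289697-94297838), with lA H3K4me1 at 1 of them. That span also held 1 aNPC and 1 lA H3K27ac peak. Another run of 4 spanned 8316 bp in introns of Ssfa2 (chr2:79485624-79493939), with lA H3K4me1 at 3. Its span held 5 eA, 0 aNPC and 1 lA H3K27ac peaks.

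The genes of members carried H3K27ac at their promoters at every stage in most cases. It lay within 1 kb of a coding start site at aNPC in 73.2% of the 1619 genes, at eA in 77.6% and at lA in 74.1%, against 66.3%, 70.4% and 66.2% of the genes of all distal eA peaks. Promoter H3K27ac was present at eA and at neither other stage for 48 genes (2.96%, 2.24 to 3.91), against 3.02% of the genes of all distal eA peaks, which is a like share. These 48 included the oncostatin M receptor gene Osmr, the growth factor gene Pdgfb, the endothelin gene Edn1 and the podoplanin gene Pdpn, which were named after their values were seen.

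Gene lists of the tissue and of its signals were read against the 7.61% of all coding genes. No test was made, since the lists were chosen with earlier results of these data known. A distal eA peak was found at 49.1% of all coding genes, and each list except that of microglial genes (42.9%) had a larger share. Among all coding genes with a distal eA peak, 15.5% had a member, so the 7.61% is a low reference for most lists. Astrocyte genes had members at 7 of 20 (35.0%), and 18 of the 20 had a distal eA peak of some kind. The glutamate transporter gene Slc1a3 had the most significant of them, an intronic member at chr15:8594380-8594686 (−log10 q 12.1, fold 4.92), and a neighbour of 4.06, both with lA H3K4me1. Slc4a4, a bicarbonate transporter, had an intronic member of 4.05 that kept H3K4me1 at lA and another of 2.59 that did not. Introns of the acyl-CoA synthetase gene Acsbg1 and of the folate enzyme gene Aldh1l1 held members of 3.98 and 3.79, both with lA H3K4me1, and H3K27ac was absent from the promoter of Aldh1l1 at the 3 stages. The nearest aNPC H3K4me1, aNPC H3K27ac and lA H3K27ac peaks lay 164, 239 and 222 bp from the member in Aldh1l1. For Acsbg1 they lay 5312, 24436 and 91 bp away, and for the Slc1a3 member of 12.1, 13477, 14289 and 13432 bp away.

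Glial transcription factor genes had members at 5 of 20 (25.0%). Sall1, a zinc finger repressor, had an intergenic member 14583 bp upstream (chr8:91582529-91582759, −log10 q 7.98) without lA H3K4me1. The nearest aNPC H3K4me1, aNPC H3K27ac and lA H3K27ac peaks lay 248, 273 and 336 bp from it. Of the nuclear factor I genes, Nfia, Nfib and Nfix had 2 members each. For Nfib they had 6.95 (chr4:82116617-82116866, with lA H3K4me1) and 3.72, for Nfia 6.58 (chr4:97526260-97526534, with lA H3K4me1) and 3.53, and for Nfix 5.57 (chr8:87276047-87276311, without) and 5.01. Among AP-1 and immediate early genes 1 of 25 had a member, Ier5 (4.42), while 22 of 25 had a distal eA peak.

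The genes of gp130, JAK and STAT signalling, the pathway that LIF acts through, had members at 7 of 24 (29.2%). An intron of Stat3 held a member of 11.97 (chr11:100752138-100752377, fold 4.76) and a neighbour of 3.999, both without lA H3K4me1 and both nearest to the start site of Stat5a, to which the rule gave them. Osmr had an intronic member of 11.6 (chr15:6799432-6799917) with lA H3K4me1. Jak2, a cytoplasmic tyrosine kinase that binds cytokine receptors, and Lifr, the LIF receptor, had intergenic members of 7.11 (chr19:29307401-29307584) and 6.59 (chr15:7151739-7152119), both without lA H3K4me1. In this list 5 of the 9 members had no lA H3K4me1, where 28.4% of all members had none, and 2 of the 5 were the neighbours in Stat3.

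The BMP and TGF-beta genes had members at 4 of 37 (10.8%). They were nearest to the inhibitor gene Smad7 (5.00, in an intron of Ctif 158376 bp away) and the ligand gene Bmp2 (3.65, intergenic), or lay in an intron of the co-receptor gene Tgfbr3 (5.00) or in an intron of the signal transducer gene Smad3 (3.62), and all 4 had lA H3K4me1. FGF and EGF receptor and feedback genes had members at 4 of 26 (15.4%). The ERK phosphatase gene Dusp6 was nearest to a member of 12.8 in an exon of its neighbour Poc1b (chr10:98660312-98660611), without lA H3K4me1. This member lay 52 bp from aNPC H3K4me1, 71 bp from aNPC H3K27ac and 5743 bp from lA H3K27ac. An intron of Spred1, an inhibitor of Ras signalling, held a member of 12.1 (chr2:116990663-116990916) with lA H3K4me1, Spred2 a member of 4.08 and Fgf1 a member of 2.27, both without. Notch genes had members at 1 of 20 (5.00%), the coactivator gene Maml2, with 2 members of 5.67 and 4.12 and no lA H3K4me1. The member of 5.67 lay 278 bp from aNPC H3K4me1, 251 bp from aNPC H3K27ac and 275 bp from lA H3K27ac.

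Genes of actin, SRF and the Hippo pathway had members at 6 of 30. Yap1 had the strongest, and the tropomyosin gene Tpm1 (6.38), the SRF coactivator gene Mkl2 (6.13) and the Yap1 relative Wwtr1 (2.73) followed, with lA H3K4me1 at the first 3 of these 4. Genes of matrix and adhesion had members at 8 of 36 (22.2%), of which the integrin gene Itga5 (6.45) and the laminin gene Lamc1 (4.52) lacked lA H3K4me1 at the named member, and tenascin C, Tnc (6.09), and the collagen gene Col6a2 (5.00) had it. Genes of cell cycle exit had members at 2 of 20 (10.0%), Gadd45g (8.03) and Gadd45a (5.98). For the lists of other lineages, which are short, neuronal and proneural genes had members at 1 of 21 (4.76%), Sox4 (7.85), oligodendrocyte-lineage genes at 1 of 10 (10.0%), Cspg4 (4.35), and microglial, mesenchymal and pluripotency genes at 0 of 7, 0 of 10 and 0 of 7. The shares for primed transient peaks were higher in each list except oligodendrocyte-lineage genes, for example 40.0% of astrocyte genes and 65.0% of glial transcription factor genes, from 6846 regions against 2547.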

How the data were processed

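Chromatin immunoprecipitation of 2 histone marks at 3 stages was sequenced. Unique alignments to mm9 were made by the authors with Bowtie, who merged the 2 replicates of each stage and mark with SAMtools 0.1.19. MACS2, run without an input, gave the peaks. The 6 deposited lists give each peak's position and summit offset. The deposited score is an integer that follows the significance. The deposited fold is the enrichment at the summit over the local background. The deposited −log10 values of the q-value were used, and those of the p-value were not. Fold and −log10 q were used within a list only. The depth of the merged reads is unknown, so intervals cover counting over regions only. No column of other samples was used. The series has 51 samples, 8 RNA-seq libraries have conflicting labels and were given no group, and RNA-seq and knockdown samples were not analysed here.

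The members, gene lists and motifs were chosen with earlier results of these data known. Overlap was 1 bp or more. Start sites were those of 51710 coding transcripts of GENCODE M1 on mm9. Region centres gave the location in exons, introns or intergenic sequence. Windows of 200 bp around the summit were read from mm9 and searched for exact matches of 27 motifs on either strand, and overlapping matches of a motif were counted as 1. The NF1 full site and the single NF1 letters, and the EGR and GC box letters, can share bases. Shares were compared by two-sided Fisher's exact tests with Newcombe and Wilson intervals at 95%, adjusted after Benjamini and Hochberg over 12 tests of shares, 81 of motifs and 31 within the members, with a threshold of 0.05. The code was tested on simulated data. Regions named in the text were the 10 members of highest −log10 q, the member of highest −log10 q with each of the motifs past the threshold or of AP-1, NF1, SOX and STAT, the 5 genes with most members (ties by highest −log10 q), up to 4 genes of each list by −log10 q, members at the edges of the rule and the 3 largest runs (ties by shortest span), a run being members with neighbours within 12.5 kb. A further 3 members with STAT letters were added after seeing the data. The 31 comparisons within the members were chosen after seeing the data. Genes of the lists on the sex chromosomes or under another symbol (Map2) were not matched. Alternatives were another significance limit, equal list lengths, margins of 1 kb, the summit inside the H3K4me1 peak, other start sites and distances, windows of 500 bp and a Cochran-Mantel-Haenszel test over GC steps of 5%, and 3 restrictions added after seeing the data. Python 3.11.15, NumPy 2.4.6, SciPy 1.17.1, statsmodels 0.14.6, pysam 0.24.0 and matplotlib 3.10.9 were used.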

Additional observations from a re-analysis of the deposited data

How the results depend on the processing

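The lower share of lA H3K4me1 in members kept its direction and its side of the threshold against the 3 sets under 8 alternatives (differences from −12.7 to −21.3 points) and under the 3 restrictions added after seeing the data (−10.5 to −18.8 points). The higher AP-1 share against primed transient and other distal peaks kept its call under the alternatives run, except among −log10 q from 3 to 8, where that against primed transient peaks was lost (1.79 points). Against sustained unprimed peaks it was called in 1 alternative, with the summit inside the H3K4me1 peak (1.51 points, adjusted p = 0.0435 by Fisher's exact test). The number of members fell to 1140 under a limit of 5 on the −log10 q of eA H3K27ac peaks, to 1669 with that limit in all lists, to 1361 with no aNPC H3K4me1 within 1 kb and to 1339 with no aNPC or lA H3K27ac within 1 kb. The share of members whose eA H3K4me1 peak reached an aNPC one was 19.3% with the limit in all lists, 29.9% with equal list lengths, 0.0735% and 20.2% with these 2 margins, and 46.9% when the summit had to lie inside the H3K4me1 peak.

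The share more than 50 kb from a start site had no stable direction. Against primed transient peaks the difference was −0.18 points with the limit in the H3K27ac list, −0.64 at 2 kb, −0.93 with no aNPC H3K4me1 within 1 kb, −1.41 for H3K4me1 peaks that did not reach, and 2.42 (called) with equal list lengths. Against other distal peaks it was 1.86 with the limit in all lists, 1.70 with equal list lengths, 1.05 with all start sites, −2.37 (called) for peaks that did not reach and −3.20 (called) with no H3K27ac within 1 kb. Against sustained unprimed peaks it lost its call with the limit in all lists (−1.43), equal list lengths (−0.99) and all start sites (−1.55). The intergenic share against primed transient peaks lost its call with the limit in all lists (−2.51). The GC share against sustained unprimed peaks turned to 0.21 with the summit inside, 0.69 with no aNPC H3K4me1 within 1 kb, 3.02 (called) with no H3K27ac within 1 kb, 1.56 in 500 bp windows and 0.0908 for peaks that did not reach. The GC box and ETS shares against sustained unprimed peaks turned to 0.0973 and 0.00828 points with the limit in all lists.

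Of the 81 motif tests, 2 gave a higher and 5 a lower share. The lower ones numbered 0 with the limit in all lists and over GC steps, 2 with the limit in the H3K27ac list, with each 1 kb margin and for −log10 q from 3 to 8, 3 with equal list lengths and 8 in 500 bp windows. The higher ones numbered 1 for −log10 q from 3 to 8, 3 with the summit inside and in 500 bp windows, and 4 for peaks that did not reach. The causes were not tested. No paired analysis was possible because each list merges its replicates and its columns carry no replicate number, and leaving out a replicate could not be done for the same reason. A share of repeats was not computed, since the genome used has no repeat masking.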
